A study of Homo sapiens with 6 samples.

Results

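ATF4 target genes and the kinases of the integrated stress response were followed in K562 cells, a leukemia line of erythroid character, with and without overexpression (OE) of PCBP1, an RNA-binding protein and iron chaperone. The 41 genes were chosen by name from general knowledge of the pathway, out of 62252 annotated genes in the libraries. Earlier results of these data were known when they were chosen. The shares of members called below therefore describe the list and are not an independent test of it. They comprise 5 genes of the kinases and their mitochondrial relay, 4 transcription factors, 6 apoptosis-linked and feedback genes, 4 growth restraint and secreted factors, 7 serine-folate enzymes, 7 other amino acid enzymes and 8 amino acid transporters. All 41 passed the filter on low counts (a mean estimated count above 10).

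PolyA RNA was sequenced from 3 libraries without doxycycline (−Dox) and 3 with it (+Dox). Both groups are the same stable K562 line, which carries Flag-PCBP1 behind a tet-inducible promoter in a cassette at the AAVS1 locus. The line goes back to a single clone edited with Cas9 and an AAVS1 guide; the Flag-PCBP1 cassette was then exchanged in with Cre, and the puromycin-selected cells were kept as a polyclonal pool. Dox and Flag-PCBP1 change together between the groups, and their effects cannot be told apart. Dose and time of Dox are not given in the sources used here for these libraries. The labels do not say that replicates came from separate cultures, so p-values measure only the spread between these libraries.

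In the integrated stress response, kinases that sense different stresses phosphorylate the translation factor eIF2. This slows translation in general while the mRNA of ATF4, which carries upstream reading frames, is translated better. ATF4 then binds C/EBP-ATF response elements and switches on genes for amino acid uptake and synthesis, redox control and, when stress lasts, apoptosis. The kinase EIF2AK1 (HRI) is known in red cell precursors as the sensor of heme shortage, and it also receives mitochondrial stress through OMA1 and DELE1. Much of this control lies in translation and protein modification, which mRNA libraries do not measure.

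The −Dox libraries held 84177316, 80104627 and 74766040 estimated counts (replicates 1, 2 and 3 in this order, here and below), and the +Dox libraries 70905656, 82263502 and 82449808. Gene levels are given below as CPM (counts scaled to a common library size, normalised by TMM) or, for comparisons between genes, as TPM, which also corrects for transcript length. PCBP1 itself stood at 247.5, 269.5 and 266.9 CPM in −Dox and at 1030, 936.4 and 1037 CPM in +Dox. It rose by 1.94 on the log2 scale (SE 0.0551, adjusted p = 5.22e-10 by edgeR), in the direction of the labels. Erythroid markers were detected, among them KLF1 at 70.07 to 116.2 CPM and GATA1 at 156.9 to 182.6 CPM over the 6 libraries. Of 8 markers of other cell types, MS4A1 (B cells) had no counts, CD3E (T cells) reached at most 0.0846 CPM and CD14 (monocytes) at most 0.187 CPM. The epithelial marker EPCAM, at 40.9 to 46.2 CPM, and the leukocyte marker PTPRC, at 150.5 to 206.5 CPM, were detected in every library, and PTPRC was lower in +Dox (log2 fold change −0.32, adjusted p = 0.00161). In bulk RNA, fewer cells of a type and less RNA per cell cannot be told apart.

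Among the 41 genes, the −Dox replicate 1 library stood apart. It held the highest CPM of the −Dox libraries for 30 members (73.2%), against 36.6% of all genes tested. The median deviation of the members from their own mean over 6 libraries was 0.17 on the log2 scale in this library, −0.01 and 0.05 in −Dox replicates 2 and 3, and −0.06, −0.07 and −0.06 in +Dox replicates 1, 2 and 3. The same median over all 21045 genes tested was near 0 in every library, between −0.0054 and 0.0021. By this median the 3 +Dox libraries were close to each other, and −Dox replicate 1 lay above −Dox replicates 2 and 3. Among the +Dox libraries, replicate 1 held the highest CPM for 20 members (48.8%), against 32.5% of all genes tested. Where a call was lost or gained without −Dox replicate 1, the value without it is also given. Its depth was the highest of the 6, and the part of depth in these levels was not tested.

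**Figure D1:**
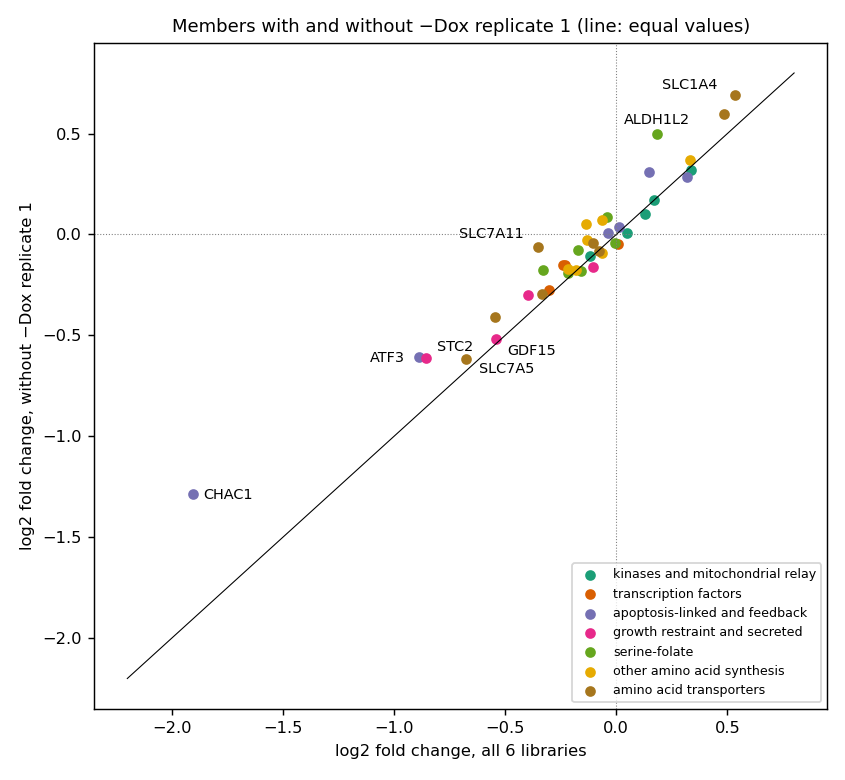
Log2 fold change (+Dox over −Dox) of each of the 41 members with all 6 libraries (x axis) and without −Dox replicate 1 (y axis); colors mark the groups of genes and the diagonal marks equal values. Many points below 0 lie above the diagonal, among them CHAC1 at −1.91 and −1.29 and SLC7A11 at −0.35 and −0.06, while GDF15 and SLC7A5 lie close to it.

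Most of the ATF4 targets that changed in +Dox were lower. Of the 41 members, 21 had an adjusted p under 0.05 by edgeR (51.2%), 5 higher and 16 lower in +Dox; over all genes tested the share was 15.8%, with 8.16% higher and 7.68% lower. Among genes with a mean of at least 1 CPM, which all members other than NUPR1 reach, 22% passed, with 11.3% higher and 10.7% lower. The members' median log2 fold change was −0.12, against 0.0061 over all genes. Fold changes were small: CHAC1 alone met the limits for a differentially expressed gene (DEG; a log2 fold change beyond 1 in either direction with an adjusted p under 0.05). DEGs were 1.46% of all genes, 0.737% higher and 0.727% lower. The groups of libraries did not overlap for 24 members, 6 with every +Dox library above and 18 with every +Dox library below; over all genes the groups did not overlap in 33.2%, with +Dox above in 17.4% and below in 15.8%. Without −Dox replicate 1, 18 members were called, 6 higher and 12 lower, and the median was −0.07. The lower calls numbered 10 when +Dox replicate 1 was left out and 9 when +Dox replicate 3 was. Over all genes tested, calls in either direction numbered 2432 and 2288 in these settings, against 3333 with every library kept. Without −Dox replicate 1 they numbered 3338. Of the 21 called members, 10 were called in each of 12 other settings: EIF2AK1, PPP1R15A and SLC1A4 higher, and ATF3, CHAC1, GDF15, MTHFD1L, SLC7A5, SLC7A1 and SLC38A2 lower.

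**Figure D2:**
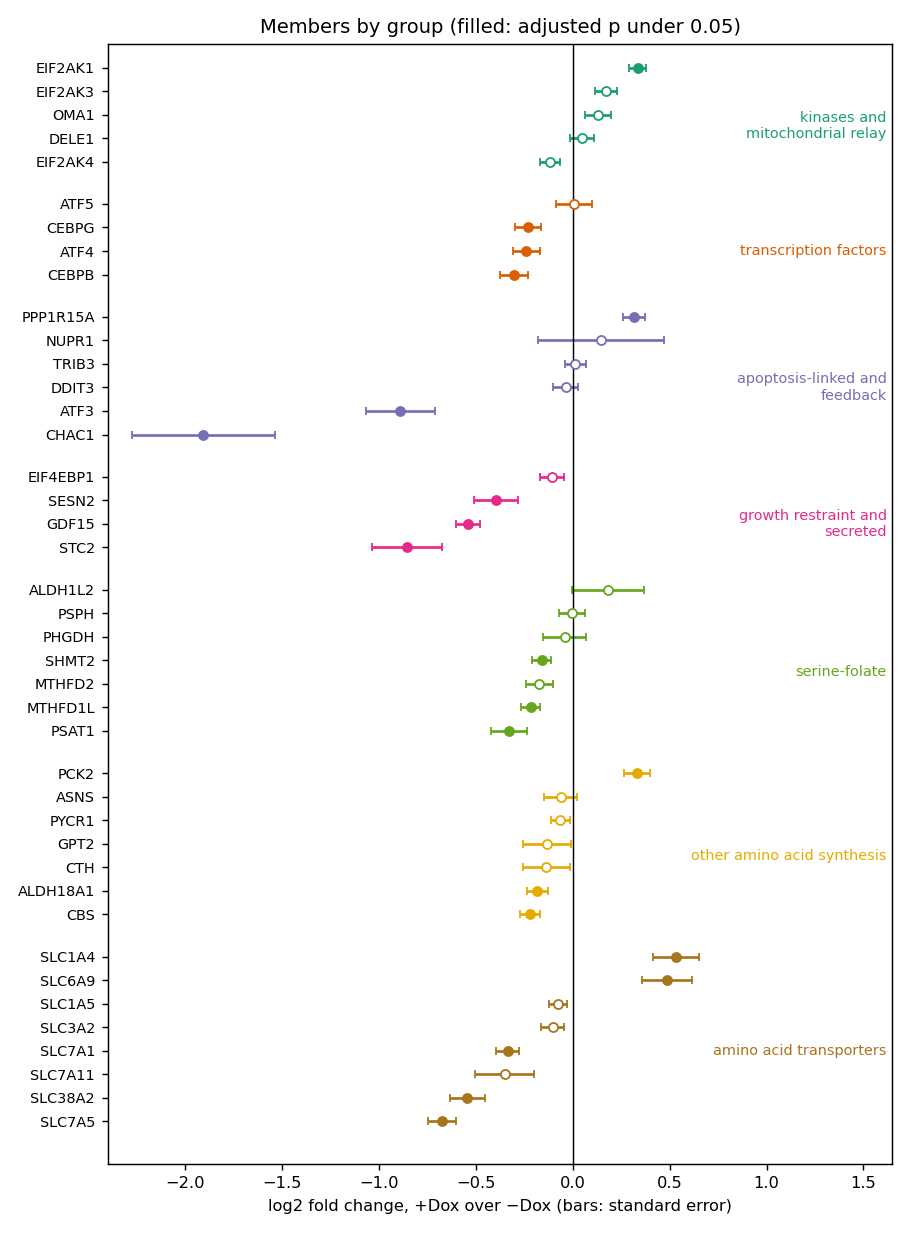
Log2 fold change (+Dox over −Dox) of the 41 members by group of genes; bars show the standard error from edgeR, and filled points have an adjusted p under 0.05. Filled points to the right of 0 are EIF2AK1, PPP1R15A, PCK2, SLC1A4 and SLC6A9, and CHAC1 lies farthest to the left at −1.91.

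The members differed widely in level per transcript length. In −Dox the highest were MTHFD2, a mitochondrial folate enzyme, at 183.7 ± 17.2 TPM (SD, n = 3) and ATF4 at 178 ± 26.9 TPM, whose spreads overlap. SLC38A2 (125.7 ± 20.4 TPM) came next, and its range of mean ± SD did not reach that of ATF4. It was followed by EIF4EBP1 (105 ± 2.53), CBS (101.5 ± 13.3), EIF2AK1 (95.2 ± 3.01), ASNS (93 ± 20.2) and PYCR1 (89.1 ± 5.04 TPM); from SLC38A2 to PYCR1 the ranges of neighbours in this order overlapped. At the low end stood CHAC1 at 1.42 ± 0.926 TPM, ALDH1L2 at 0.975 ± 0.185 TPM and NUPR1 at 0.211 ± 0.0977 TPM, the last with 29 to 57 estimated counts in a library. The SD of CHAC1, ATF3 and STC2 was larger in −Dox (0.926, 2.32 and 0.853 TPM) than in +Dox (0.0604, 0.274 and 0.273 TPM).

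**Figure D3:**
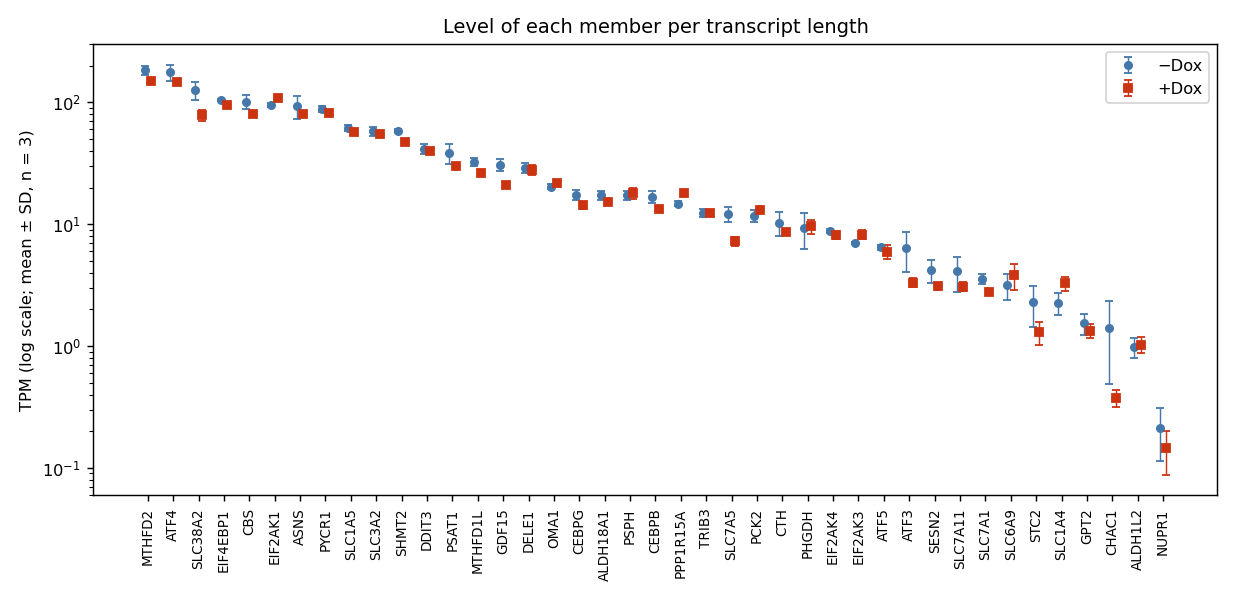
TPM of each member on a log scale, ordered by the −Dox mean; circles and squares are means of −Dox and +Dox and bars the SD over 3 libraries. Levels run from 183.7 TPM for MTHFD2 to 0.211 TPM for NUPR1 in −Dox, and EIF2AK1, at 95.2 TPM, is the highest of the kinases.

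Of the kinases and their relay, EIF2AK1 rose and the other 4 genes did not pass the test; 8.16% of all genes were called higher, and 11.3% at 1 CPM or more. EIF2AK1 (HRI; ENSG00000086232, GRCh38 chr7:6022247-6059175, minus strand) stood at 263.6, 269.6 and 273.2 CPM in −Dox and at 349.5, 330.2 and 337.9 CPM in +Dox. Every +Dox library lay above every −Dox library, with a 1.26-fold rise (log2 fold change 0.34, SE 0.0439, adjusted p = 2.84e-04). Without −Dox replicate 1 the log2 fold change was 0.32. AIMP2, on the opposite strand, overlaps 9.69% of its exon bases; AIMP2 had 2162 to 2611 counts per library, and EIF2AK1 had 20407 to 27921. EIF2AK1 was also by far the most abundant eIF2 kinase per transcript length: in −Dox it had 95.2 TPM, against 7.03 ± 0.102 for EIF2AK3, 8.82 ± 0.273 for EIF2AK4 and 8.98 ± 1.06 for EIF2AK2.

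EIF2AK3 (PERK), the kinase of the endoplasmic reticulum, stood at 23.99, 23.82 and 23.97 CPM in −Dox and at 26.3, 27.98 and 26.53 CPM in +Dox. The groups did not overlap, but its log2 fold change of 0.17 (SE 0.0551) had an adjusted p of 0.0528 by edgeR. With an offset for average transcript length it was called, at 0.26 (adjusted p = 0.0467). Protein-coding transcripts held a mean of 43.1% of its TPM in −Dox and 35.8% in +Dox, without overlap. By estimated counts these shares were 57.2% and 50.8%, with overlap. The level of its coding transcripts alone was not tested. EIF2AK4 (GCN2), the sensor of uncharged tRNA, stood at 48.96, 48.59 and 46.65 CPM in −Dox and at 43.31, 44 and 45.63 CPM in +Dox. Here all +Dox libraries lay below, with a log2 fold change of −0.12 (SE 0.0512, adjusted p = 0.15). EIF2AK2 (PKR), the kinase for double-stranded RNA, had 57.47 to 64.6 CPM over the 6 libraries and a log2 fold change of 0.08 (adjusted p = 0.339).

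OMA1, the mitochondrial protease that cleaves DELE1 under stress, had 22.16, 23.93 and 23.18 CPM in −Dox and 23.7, 24.94 and 27.18 CPM in +Dox. It did not pass (log2 fold change 0.13, SE 0.0652, adjusted p = 0.21). DELE1, which carries the signal to EIF2AK1, had 38.04, 39.4 and 43.38 CPM in −Dox and 40.71, 43.24 and 40.83 CPM in +Dox, a difference of 0.05 on the log2 scale (SE 0.0606, adjusted p = 0.678). The groups overlapped for both relay genes.

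**Figure D4:**
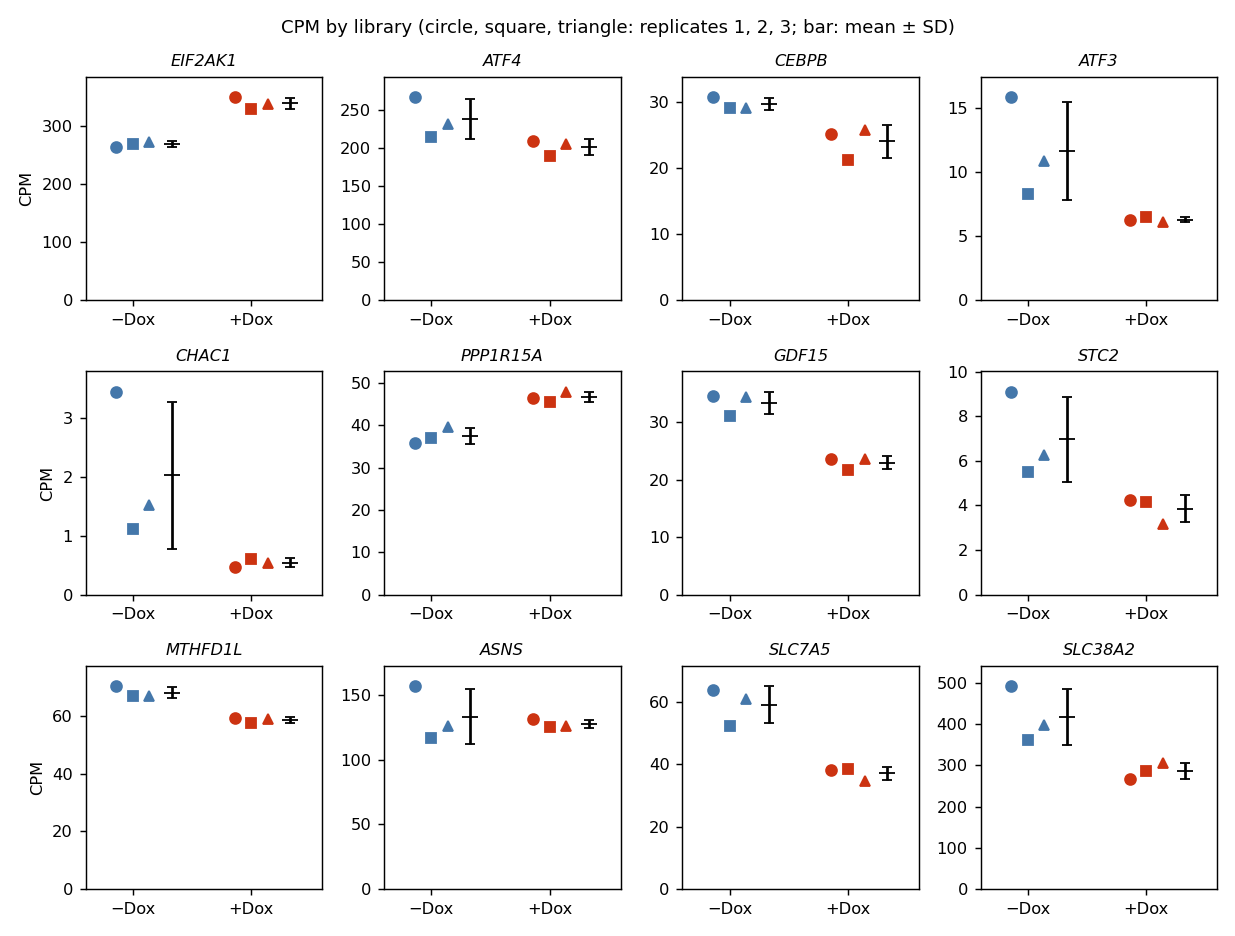
CPM of 12 members in each library (circle, square and triangle for replicates 1, 2 and 3; −Dox in blue, +Dox in red), with the mean and SD of each group beside the points; every y axis starts at 0. EIF2AK1 and PPP1R15A sit higher in all +Dox libraries, and ASNS overlaps. For every gene shown other than EIF2AK1 and PPP1R15A, −Dox replicate 1 (blue circle) is the highest −Dox library, for GDF15 by little.

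Of the 4 transcription factors, 3 fell (75%, against 7.68% lower over all genes and 10.7% at 1 CPM or more), and 1, CEBPB, without −Dox replicate 1. ATF4 mRNA (chr22:39519695-39522683, plus strand) stood at 266, 214.7 and 231.6 CPM in −Dox and at 209.3, 189 and 205 CPM in +Dox. All +Dox values lay below the −Dox values with a log2 fold change of −0.24 (SE 0.0702, adjusted p = 0.035). Without −Dox replicate 1 the log2 fold change was −0.15 (adjusted p = 0.0896), and the call was lost without any single library other than −Dox replicate 2 (adjusted p 0.0543 to 0.121). It was also lost with an offset for average transcript length (−0.22, adjusted p = 0.125). Near-identical pseudogenes took few reads, with at most 23 counts for ATF4P3 and 4 for ATF4P4.

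CEBPB, a C/EBP factor that can pair with ATF4, stood at 30.75, 29.22 and 29.11 CPM in −Dox and at 25.24, 21.27 and 25.79 CPM in +Dox. Its log2 fold change was −0.30 (SE 0.0729, adjusted p = 0.0135), and −0.28 without −Dox replicate 1. The call was lost with the length offset (−0.29, adjusted p = 0.0746). CEBPB-AS1, on the opposite strand, overlaps 12.6% of its exon bases, with 35 to 103 counts in a library. CEBPG, another C/EBP partner of ATF4, stood at 69.38, 57.83 and 60.01 CPM in −Dox and at 52.9, 54.89 and 51.68 CPM in +Dox. Its log2 fold change of −0.23 (SE 0.0667, adjusted p = 0.0327) became −0.15 without −Dox replicate 1 (adjusted p = 0.0837), and it passed without −Dox replicate 2 alone among the 6 libraries left out in turn (adjusted p 0.0502 to 0.121 for the others). ATF5, a relative of ATF4 linked to mitochondrial stress, overlapped between groups, with 9.856, 11.44 and 10.63 CPM in −Dox and 10.33, 11.86 and 9.866 CPM in +Dox (a log2 fold change of 0.0069, adjusted p = 0.973); 19.5% of its exon bases are shared with NUP62 on the other strand.

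C/EBP-ATF response elements are the sites that ATF4 dimers bind, so the promoters of the members were searched for the letters TGATGNAA on both strands. RefSeq promoters (250 bases before to 50 after a gene's start, GRCh38.p14) were at hand for 32 of the 41 members; EIF2AK1, NUPR1, EIF4EBP1, PSPH, SHMT2, ALDH1L2, PYCR1, GPT2 and SLC7A11 were not in the table. A match was found for 9 of the 32 members (28.1%), against 1217 of 27305 genes (4.46%). The matches are shown because members with and without them can be compared. Each is given 5′ to 3′ on the strand that reads TGATGNAA, with the matched letters in capitals and RefSeq flanks in lower case.
ASNS: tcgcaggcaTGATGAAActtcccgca
ATF3: aggtcaggaTGATGGAAggctgtcat
CEBPG: cgcggcgtcTGATGCAAcctgccggc
CHAC1: tggcaggagTGATGCAAcggcagggg
MTHFD1L: cgccggctcTGATGCAAtcgcgccgg
SLC1A4: ggctggagaTGATGCAAacgggagcc
SLC1A5: ggaagtggcTGATGCAAgctgtccag
SLC3A2: ggagcTGATGTAAggagtcctg
SLC7A1: gcgcactgcTGATGAAAcctggcgcc

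On GRCh38 these stretches lie at chr7:97872460-97872485 (ASNS, minus strand), chr1:212565207-212565232 (ATF3, plus), chr19:33374062-33374087 (CEBPG, plus), chr15:40953253-40953278 (CHAC1, minus), chr6:150866348-150866373 (MTHFD1L, plus), chr2:64989383-64989408 (SLC1A4, minus), chr19:46784895-46784920 (SLC1A5, minus), chr11:62881727-62881748 (SLC3A2, minus) and chr13:29595665-29595690 (SLC7A1, minus). The CHAC1, SLC1A4 and SLC3A2 matches are on the strand opposite to the gene. Against the GENCODE models of the same genes, the ATF3 match lies upstream of the gene, the CEBPG match lies in an intron, and the other 7 fall in an exon of at least 1 transcript. Most share TGATGCAA: the free letter N is C in CEBPG, CHAC1, MTHFD1L, SLC1A4 and SLC1A5, A in ASNS and SLC7A1, G in ATF3 and T in SLC3A2. Of the 9 genes, SLC1A4 rose, ATF3, CEBPG, CHAC1, MTHFD1L and SLC7A1 fell and 3 did not pass, with a median log2 fold change of −0.22. Of the 23 members without a match, 3 rose, 10 fell and 10 did not pass, with a median of −0.14. Over all genes tested 15.8% were called, and 22% at 1 CPM or more; whether the groups with and without a match differ was not tested. When −Dox replicate 1 was left out, CEBPG lost its call among the 9, leaving 1 higher and 4 lower with a median of −0.15. ATF4, SESN2 and ALDH18A1 lost theirs among the 23, leaving 3 higher and 7 lower with a median of −0.07. A match in these letters is a description of the window and not evidence of binding. The endoplasmic reticulum stress element, searched on both strands, was found in 0 of the 32 members and in 25 of 27305 genes (0.0916%).

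Of the apoptosis-linked and feedback genes, ATF3 and CHAC1 fell, PPP1R15A rose and DDIT3, TRIB3 and NUPR1 did not pass the test, where 15.8% of all genes passed and 22% at 1 CPM or more. CHAC1, which breaks down glutathione (chr15:40952962-40956512, plus strand), stood at 3.451, 1.117 and 1.526 CPM in −Dox and at 0.4651, 0.6149 and 0.542 CPM in +Dox. These values rest on 292, 87 and 114 estimated counts in −Dox and 33, 52 and 44 in +Dox. Every +Dox library was below every −Dox library, with a log2 fold change of −1.91 (SE 0.37, adjusted p = 0.00384); without −Dox replicate 1 it was −1.29 (adjusted p = 0.0112). ATF3, an immediate stress-induced repressor and activator, stood at 15.82, 8.307 and 10.86 CPM in −Dox and at 6.243, 6.516 and 6.146 CPM in +Dox. The −Dox libraries were scattered and the +Dox libraries nearly equal, with a log2 fold change of −0.89 (SE 0.176, adjusted p = 0.00433), and −0.61 without −Dox replicate 1 (adjusted p = 0.00403).

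PPP1R15A (GADD34), the phosphatase subunit that reverses eIF2 phosphorylation, moved the other way. It stood at 35.88, 37 and 39.61 CPM in −Dox and at 46.59, 45.51 and 47.99 CPM in +Dox, with no overlap. The rise was 1.25-fold (log2 fold change 0.32, SE 0.0557, adjusted p = 0.00206). DDIT3 (CHOP), a factor linked to apoptosis under lasting stress, had 31.98, 29.03 and 29.52 CPM in −Dox and 31.15, 27.49 and 29.71 CPM in +Dox (a log2 fold change of −0.04, SE 0.064, adjusted p = 0.775). MARS1, on the opposite strand, overlaps 27.2% of the DDIT3 exon bases and was itself lower (−0.24). TRIB3, a pseudokinase that restrains this pathway, and NUPR1, a small chromatin protein, had log2 fold changes of 0.01 and 0.15 (adjusted p = 0.915 and 0.826).

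All 4 growth restraint and secreted factors had a log2 fold change below 0, and 3 fell (the shares called lower were 7.68% over all genes and 10.7% at 1 CPM or more). GDF15, a secreted stress cytokine (chr19:18374731-18389176, plus strand), stood at 34.52, 31.1 and 34.44 CPM in −Dox and at 23.65, 21.63 and 23.54 CPM in +Dox. It fell to 0.688 of its −Dox level (log2 fold change −0.54, SE 0.0636, adjusted p = 1.24e-04), and −Dox replicate 1 did not stand out (−0.52 without it). STC2, a secreted glycoprotein, stood at 9.1, 5.508 and 6.265 CPM in −Dox and at 4.228, 4.174 and 3.153 CPM in +Dox. The difference was −0.86 on the log2 scale (SE 0.179, adjusted p = 0.00598), and −0.61 without −Dox replicate 1. With the length offset it was −0.77 and lost its call (adjusted p = 0.0766).

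SESN2, which signals leucine shortage to mTORC1, stood at 17.44, 12.31 and 16.46 CPM in −Dox and at 11.09, 11.72 and 12.3 CPM in +Dox. The closest libraries of the 2 groups were nearly equal, and the log2 fold change of −0.40 (SE 0.112, adjusted p = 0.0297) lost its call without any library other than −Dox replicate 2 (adjusted p 0.062 to 0.113). It was −0.30 without −Dox replicate 1 (adjusted p = 0.0894) and −0.40 with the length offset (adjusted p = 0.0967). EIF4EBP1, the repressor of cap-dependent translation, had 63.34, 72.49 and 69.94 CPM in −Dox and 66.77, 59.07 and 65.26 CPM in +Dox, which overlap (log2 fold change −0.11, adjusted p = 0.305).

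In the serine-folate group, which makes serine and passes its carbon to folate, 3 of 7 enzymes fell and none rose, beside 7.68% of all genes called lower and 10.7% at 1 CPM or more. The median log2 fold change was −0.16. MTHFD1L, the mitochondrial formate-producing synthetase, stood at 70.42, 66.94 and 66.93 CPM in −Dox and at 59.32, 57.52 and 58.94 CPM in +Dox. The groups were well apart, with a log2 fold change of −0.22 (SE 0.0487, adjusted p = 0.00898). PSAT1, the aminotransferase of serine synthesis, stood at 93.15, 69.83 and 70.05 CPM in −Dox and at 63.88, 61.17 and 60.65 CPM in +Dox. The log2 fold change was −0.33 (SE 0.092, adjusted p = 0.0289) and −0.18 without −Dox replicate 1 (adjusted p = 0.0328); without any 1 of the +Dox libraries the call was lost (adjusted p 0.0598 to 0.108), as it was with the length offset (−0.34, adjusted p = 0.0655).

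SHMT2, the mitochondrial enzyme that splits serine, stood at 103.5, 104.7 and 110 CPM in −Dox and at 95.79, 91.73 and 97.15 CPM in +Dox. Its log2 fold change of −0.16 (SE 0.0479, adjusted p = 0.0379) passed without −Dox replicate 1 (adjusted p = 0.0292) and lost its call without any other library (0.062 to 0.146). MTHFD2 stood at 322.4, 274.5 and 256.8 CPM in −Dox and at 248.8, 251.4 and 257.2 CPM in +Dox, with overlap between +Dox replicate 3 and −Dox replicate 3 (log2 fold change −0.17, SE 0.0691, adjusted p = 0.116). Its log2 fold change without −Dox replicate 1 was −0.07 (adjusted p = 0.37). It was called lower when average transcript length was an offset (−0.25, adjusted p = 0.0302), with DESeq2, with no filter on low counts and without −Dox replicate 3. PHGDH, which opens the pathway from glycolysis, PSPH, which closes it, and ALDH1L2, a mitochondrial folate dehydrogenase, had log2 fold changes of −0.04, −0.0040 and 0.18 and did not pass. Without −Dox replicate 1 ALDH1L2 was called higher, at 0.50 (adjusted p = 0.0185).

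The other amino acid enzymes were mixed, with 1 higher, 2 lower and 4 of 7 not passing; over all genes 8.16% were higher and 7.68% lower, and at 1 CPM or more 11.3% and 10.7%. PCK2, the mitochondrial phosphoenolpyruvate carboxykinase, stood at 19.11, 16.78 and 18.59 CPM in −Dox and at 23.62, 22.98 and 22.08 CPM in +Dox. No libraries overlapped (log2 fold change 0.33, SE 0.0672, adjusted p = 0.00472); with an offset for average transcript length it was 0.21 (adjusted p = 0.168). CBS, which makes cystathionine from homocysteine, stood at 191.5, 172.4 and 174.6 CPM in −Dox and at 159.1, 154.2 and 149.6 CPM in +Dox, a log2 fold change of −0.22 (SE 0.0517, adjusted p = 0.012). Without +Dox replicate 3 its adjusted p was 0.055. Protein-coding transcripts held a mean of 58% of its estimated counts in −Dox and 64% in +Dox, without overlap. The fall of the whole gene is thus not a measure of its coding transcripts, whose level was not tested. A near-identical annotated copy of CBS (ENSG00000274276, 99.96% identity) took 11 counts in +Dox replicate 3 and none elsewhere.

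ALDH18A1, which starts proline synthesis, stood at 57.81, 58.22 and 55.78 CPM in −Dox and at 51, 52.48 and 47.91 CPM in +Dox. Its log2 fold change was −0.18 (SE 0.0529, adjusted p = 0.0335), and the call was lost without any library other than +Dox replicate 2 (adjusted p 0.0556 to 0.13). It was −0.18 without −Dox replicate 1 (adjusted p = 0.0556) and −0.15 with the length offset (adjusted p = 0.21). PYCR1, the last step of proline synthesis, had 134.7, 143.4 and 141.5 CPM in −Dox and 137.1, 128.8 and 135.7 CPM in +Dox (a log2 fold change of −0.06, adjusted p = 0.427).

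ASNS, the asparagine synthetase often used as a readout of ATF4, is given by library although it lies outside the rule for this group, after its values were seen. It had 157.4, 117.2 and 126.2 CPM in −Dox and 131.8, 125.9 and 126.2 CPM in +Dox, with a log2 fold change of −0.06 (SE 0.0848, adjusted p = 0.696). Without −Dox replicate 1, by far its highest library, the sign turned, at 0.07 (adjusted p = 0.427). A same-strand gene (ENSG00000284707) covers 49.3% of its exon bases and had 852 to 1331 counts. CTH, which makes cysteine, and GPT2, a mitochondrial alanine aminotransferase, had log2 fold changes of −0.14 and −0.13 (adjusted p = 0.517 and 0.545).

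The 8 amino acid transporters changed in both directions: SLC7A5, SLC7A1 and SLC38A2 fell, SLC1A4 and SLC6A9 rose, and SLC3A2, SLC7A11 and SLC1A5 did not pass (15.8% of all genes were called, and 22% at 1 CPM or more). SLC7A5 (LAT1), the light chain of the transporter for leucine and other large neutral amino acids (chr16:87830023-87869507, minus strand), stood at 64.01, 52.46 and 61.12 CPM in −Dox and at 38.05, 38.47 and 34.75 CPM in +Dox. It had the smallest p of all 41 members, with a fall to 0.626 of the −Dox level (log2 fold change −0.67, SE 0.0733, adjusted p = 6.8e-05), and −0.62 without −Dox replicate 1. Related sequences share 536 to 615 bases of its 4556-base transcript at 95.6% to 96.7% identity. Of these, ENSG00000288632 had 1364 to 1867 counts in a library and ENSG00000291073 had 1580 to 2251, beside 2700 to 5416 counts of SLC7A5. SLC7A5P2 had 90 to 140 counts, and SLC7A5P1 had 61, 94 and 77 in −Dox and 0 in all 3 +Dox libraries. SLC3A2, the heavy chain that carries SLC7A5 to the membrane, had a log2 fold change of −0.10 (SE 0.0606, adjusted p = 0.294).

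SLC38A2 (SNAT2), a sodium-coupled carrier of small neutral amino acids, stood at 492.7, 362.3 and 396.9 CPM in −Dox and at 266.8, 285.1 and 306.4 CPM in +Dox. No libraries overlapped (log2 fold change −0.54, SE 0.0912, adjusted p = 0.00151); the value was −0.41 without −Dox replicate 1 (adjusted p = 6.68e-04). SLC7A1, the carrier of arginine and lysine, stood at 29.63, 26.42 and 27.74 CPM in −Dox and at 22.73, 21.57 and 22.08 CPM in +Dox (a log2 fold change of −0.34, SE 0.0608, adjusted p = 0.00246). Every +Dox library was below every −Dox library.

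SLC1A4, which exchanges serine and alanine, stood at 12, 8.05 and 9.745 CPM in −Dox and at 14.88, 14.7 and 13.56 CPM in +Dox. It had the largest increase of the 41 members, 1.45-fold (log2 fold change 0.53, SE 0.118, adjusted p = 0.00839), and 0.69 without −Dox replicate 1 (adjusted p = 4.65e-04). SLC6A9 (GlyT1), the glycine carrier through which red cell precursors take up glycine for heme, was higher by 0.49 (SE 0.128, adjusted p = 0.0207), with adjusted p values of 0.051 to 0.0936 without −Dox replicate 2 or 3 or +Dox replicate 1 or 2. With the length offset it was 0.30 (adjusted p = 0.41). SLC7A11, the cystine carrier, had 47.65 CPM in −Dox replicate 1 and 25.83 to 29.62 CPM in the other 5 libraries. The log2 fold change was −0.35 (adjusted p = 0.15) and −0.06 without −Dox replicate 1. SLC7A11 was called without −Dox replicate 2 (−0.49, adjusted p = 0.0333) and with no filter on low counts (−0.353, adjusted p = 3.2e-06).

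The groups of targets were set side by side; over all genes tested 8.16% were called higher and 7.68% lower, and over genes that reached a mean of 1 CPM these shares were 11.3% and 10.7%. The apoptosis-linked and feedback genes had a median log2 fold change of −0.01, with 1 of 6 higher and 2 lower, so that the falls of CHAC1 and ATF3 were not shared by DDIT3 or TRIB3. The transcription factors had a median of −0.24, with 0 of 4 higher and 3 lower. The median was −0.16 for the serine-folate enzymes (0 of 7 higher, 3 lower), −0.13 for the other amino acid enzymes (1 of 7 higher, 2 lower), −0.22 for the transporters (2 of 8 higher, 3 lower) and −0.47 for the growth restraint and secreted factors (0 of 4 higher, 3 lower). Only the kinase and relay genes had a median above 0, at 0.13. Summed over its genes, the transporter group had 946.5, 755.7 and 822.9 CPM in −Dox and 653.7, 664.7 and 677.7 CPM in +Dox, and the serine-folate group had 639.9, 558 and 551 CPM in −Dox and 513.5, 510 and 520.9 CPM in +Dox. Both sums were lower in every +Dox library. So were those of the transcription factors, the growth restraint and secreted factors and the other amino acid enzymes. The last came closest to overlap, with 527.8 CPM in −Dox replicate 2 and 524.8 CPM in +Dox replicate 1. The sum of the kinase and relay genes was higher in every +Dox library. The sum of the apoptosis-linked genes overlapped, with 118.2, 105.2 and 110.8 CPM in −Dox and 114.3, 110.4 and 115.4 CPM in +Dox. The most abundant gene of a group weighs most in such a sum, SLC38A2 for the transporters and MTHFD2 for the serine-folate group. MTHFD2 itself overlapped between −Dox and +Dox and did not pass. The medians without −Dox replicate 1 were −0.15 for transcription factors, 0.02 for apoptosis-linked genes, −0.07 for serine-folate enzymes, −0.03 for other amino acid enzymes, −0.07 for transporters and −0.41 for growth restraint factors. A difference between the groups of genes was not tested.

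Other genes of the pathway were taken from lists written from general knowledge of it, also with earlier results of these data known. The background share is again 15.8% called over all genes tested, and 22% (10.7% lower) over genes with a mean of at least 1 CPM. Of 12 subunits and regulators of eIF2 and its exchange factor eIF2B, 4 fell and none rose (33.3% called), with EIF2B1 at a log2 fold change of −0.27 (adjusted p = 0.00114), the GCN2 partner GCN1 at −0.24 (0.0044) and EIF2B4 at −0.21 (0.0144). Of 13 other ATF4 or CHOP targets tested, 5 fell and 1 rose (46.2%). DDIT4, an mTORC1 inhibitor also induced by hypoxia, had 145.7, 57.52 and 85.9 CPM in −Dox and 22.56, 21.7 and 26.05 CPM in +Dox (a log2 fold change of −2.04, adjusted p = 1.27e-04), and its highest library was again −Dox replicate 1. TNFRSF10B, a death receptor, was at −0.43 (adjusted p = 2.64e-04) and BBC3, a BH3-only death protein, at −0.53 (adjusted p = 0.00201). FGF21 and SLC7A3 were below the filter. Of 10 tRNA synthetases, 3 fell and none rose (30%): IARS1, MARS1 and CARS1, at −0.21, −0.24 and −0.26.

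The other stress branches of the cell were set beside these. Of 19 genes of the IRE1 and ATF6 branches of the unfolded protein response, 6 fell and none rose (31.6%, against 15.8% of all genes and 22% at 1 CPM or more), with the chaperone HSPA5 at −0.34 (adjusted p = 2.71e-04), the factor XBP1 at −0.22 (0.00611) and EDEM1 at −0.26 (0.0135). Of 11 mitochondrial chaperones and proteases, 5 fell and none rose (45.5%), led by HSPD1 at −0.28 (adjusted p = 7.17e-04), HSPA9 at −0.27 (0.00115) and HSPE1 at −0.33 (0.00323). The medians of these lists were −0.12 for eIF2 and eIF2B, −0.30 for other targets, −0.15 for tRNA synthetases, −0.09 for IRE1 and ATF6 and −0.11 for mitochondrial chaperones, all below the 0.0061 of all genes; without −Dox replicate 1 they were −0.12, −0.17, −0.09, −0.14 and −0.14. Whether the members differ from these lists was not tested. Without −Dox replicate 1 the lists had 4, 4, 3, 5 and 4 genes called, all lower, and the 1 that had risen among other targets, SLC43A1, was no longer called. Erythroid genes moved the other way in part: EPOR (log2 fold change 0.97), KLF1 (0.46) and TAL1 (0.44) rose and TFRC (−0.34) fell; their part in the levels of the members was not tested.

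The makeup of the members' transcripts was compared as the share of TPM on protein-coding transcripts, for the 30 members that reached a mean of 1 TPM and have both coding and other transcripts. The groups did not overlap for 8, EIF2AK3, EIF2AK4, ATF3, ASNS, CBS, PCK2, SLC7A5 and SLC38A2, and for 7 when estimated counts were used; over 9199 genes this was so in 13.1% and 14.6%. By TPM the number was 8 to 15 with 1 library left out, the 15 without +Dox replicate 2; over all genes the share was then 22.7% to 23.3%. CBS, PCK2 and SLC7A5 were apart on both scales. The coding share of CBS was 42.3 ± 3.54% of TPM in −Dox and 48.8 ± 2.32% in +Dox (SD, n = 3), and that of PCK2 was 67 ± 4.97% and 78.1 ± 2.5%. For both, every +Dox library was higher, with an exact two-sided permutation p of 0.1, the smallest that 3 against 3 libraries allow. On estimated counts the shares were 58 and 64% for CBS and 87.9 and 92.9% for PCK2. SLC7A5 was near its ceiling, at 98.4 ± 0.472% and 100%.

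The share of SLC3A2 went the other way. By estimated counts it was 61.1 ± 3.01% in −Dox and 51.8 ± 2.77% in +Dox, with no overlap, and by TPM 55.2 ± 5.89% and 46.2 ± 3.74%, with overlap. The SLC3A2 transcript with the largest gain in share of TPM, named after its values were seen, is SLC3A2-224, annotated as a retained intron. It had 13.91, 9.228 and 12.32 TPM in −Dox and 15.28, 19.19 and 17.69 TPM in +Dox, and made up 20.2 ± 2.85% of the gene's TPM in −Dox and 31.6 ± 3.2% in +Dox. For this transcript the groups did not overlap, although SLC3A2 as a gene did not pass the test.

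**Figure D5:**
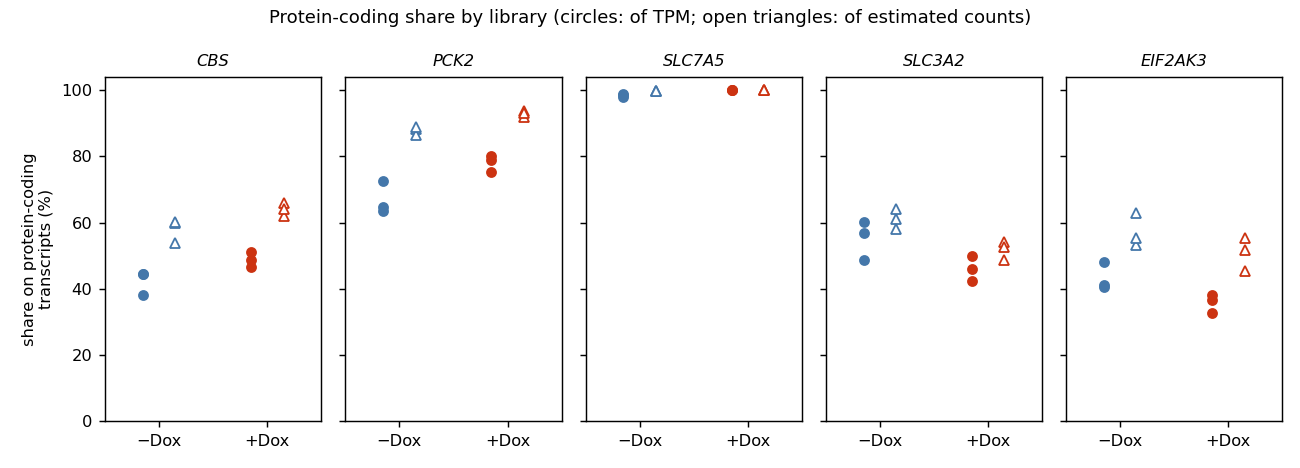
Share of each gene on protein-coding transcripts in every library, in percent, from TPM (circles) and from estimated counts (open triangles), for CBS, PCK2, SLC7A5, SLC3A2 and EIF2AK3. CBS and PCK2 are higher in all +Dox libraries on both scales, SLC3A2 is lower without overlap by estimated counts and with overlap by TPM, and EIF2AK3 is lower without overlap by TPM and with overlap by estimated counts.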

How the data were processed

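The authors quantified polyA libraries with Salmon 1.10.2 (hg38, per the submitters' processing notes) and deposited, per transcript and library, an estimated count, not scaled for depth, and a TPM value, scaled for effective transcript length and depth. Replicates were not pooled. Index, strand and bias settings are not given in the sources used here, so genes that overlap on opposite strands and near-identical copies are uncertain. Of 252045 transcripts, 251612 matched GENCODE v44 without regard to version and 433 did not. Counts were summed over 62252 genes and rounded to whole numbers. The 21045 genes whose mean count exceeded 10 entered the quasi-likelihood test of edgeR 4.0.16 (glmQLFit, glmQLFTest, TMM factors 0.974 to 1.03) in R 4.3.3, with group as the only term and Benjamini-Hochberg adjustment over all genes tested, two-sided. Alternatives were DESeq2 1.42.0, RLE size factors, other filters, a transcript length offset, the replicate number as a block and each library left out; lists and promoter groups without −Dox replicate 1, and the coding share over all genes with a library left out, were added after seeing the data. Copies were aligned with BLAST 2.17.0, and motifs searched and figures drawn in Python 3.11.15 with pandas 2.3.3 and matplotlib 3.10.9.

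The members and lists were chosen with earlier results of these data known. Values in every library are given for the kinases, relay and transcription factors and for the 4 members with the smallest p in each other group, and up to 3 genes by p are named from each other list. CPM of marker genes and the transcripts and overlapping genes named beside members are outside this rule. Not every marker gene is reported here.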

Additional observations from a re-analysis of the deposited data

How the results depend on the processing

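The count of 21 called members was 22 with DESeq2, 21 with RLE size factors or a summed count above 10, 23 with no filter and 15 with the transcript length offset, and 14 to 19 with 1 library left out. DEGs numbered 1 to 2 with 1 library left out, ATF3 joining CHAC1 without −Dox replicate 2. The median log2 fold change was −0.173 with the length offset and −0.161 to −0.0747 with 1 library left out. Over all genes, 3333 passed. The number was 3939 with DESeq2, 3374 with RLE size factors and 1883 with the length offset. It was 3184 with a summed count above 10 and 3930 with no filter, out of 27717 and 35586 genes tested. With 1 library left out it was 2288 to 3338. With no filter DEGs were 515 in place of 308. PCBP1 stayed between 1.90 and 1.98. No called member changed sign in the 12 settings, and 9 members without a call did. ATF5 was −0.00102 with DESeq2, −0.00116 with RLE, −0.000793 with the summed count and −0.0897 with the length offset; with that offset DELE1 was −0.00963, NUPR1 −0.485, PHGDH 0.0940 and PSPH 0.101. With 1 library left out, ranges were −0.0774 to 0.0632 for ATF5, −0.0776 to 0.00987 for DDIT3, −0.161 to 0.0870 for PHGDH, −0.147 to 0.0711 for ASNS, −0.267 to 0.0520 for CTH, −0.00469 to 0.0352 for TRIB3, −0.0533 to 0.309 for NUPR1 and −0.0467 to 0.0562 for PSPH; the cause was not tested. ATF4, CEBPB, SESN2, STC2, PSAT1, ALDH18A1, PCK2 and SLC6A9 lost their call with the length offset, and EIF2AK3 (0.260) and MTHFD2 (−0.251) gained one. Members whose coding share did not overlap numbered 8, and 8 to 15 with 1 library left out, 15 of them without +Dox replicate 2. The longer motif TGATGNAAT matched 1 member in place of 9.

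The replicate numbers share only a number: the deviations of same-numbered libraries correlated at −0.0656, −0.16 and 0.0241, and −Dox replicate 1 correlated best with +Dox replicate 2 (0.193). With the number as a block 18 members were called, without CEBPG, SHMT2 and ALDH18A1. In that setting 2490 of all genes passed, in place of 3333. With 3 libraries a group, members near 0 have intervals that include both directions, and the SE was widest for CHAC1 (0.370, 33 to 292 counts) and NUPR1 (0.327, 29 to 57 counts).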
